A study of Mus musculus with 4 samples.

Results

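The interferon-inducible p200 family was followed in effector CD4 cells of the CNS and of the draining lymph node (dLN) in experimental autoimmune encephalomyelitis (EAE), a mouse model of multiple sclerosis. The family was taken as 7 named genes (Ifi202b, Ifi203, Ifi204, Ifi205, Mnda, Pyhin1 and Aim2) of the 23990 gene symbols in the expression tables. The rule that picks them is a list of names and uses no expression value, but the list was drawn up with earlier results of these data known. The tables held 5 other p200 genes of the same cluster, and these are given after the members.

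All mice were wild type C57BL/6 mice (C57BL/6J in the Methods) immunized with a MOG peptide in complete Freund's adjuvant and given pertussis toxin, and cells were taken at disease onset. CD44+CD4 cells, a gate for effector and memory cells, were sort-purified from spinal cords (the CNS group, 2 libraries) and from draining lymph nodes (the dLN group, 2 libraries). The Methods describe pooled cells and 4 h of PMA and ionomycin, which bypass the T-cell receptor, whereas the sample labels describe fresh sorting and name no stimulation. The age of the mice was not given in the sources used here, and no unimmunized or unstimulated group was analysed here. Nothing in these sources says that the 2 libraries of a tissue came from separate animals or separate pools, so p-values measure the spread between libraries, which may be technical.

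The p200 proteins share a HIN domain, which binds DNA, and most also carry a pyrin domain, which binds other pyrin domains. Aim2 is the best known of them. It binds double-stranded DNA in the cytosol and recruits the adaptor Asc (gene Pycard), which activates caspase-1 in the complex called the AIM2 inflammasome. Ifi204 is often likened to human IFI16, a DNA sensor that signals through Sting, and it also binds the retinoblastoma protein and Id proteins. Ifi202b lacks a pyrin domain and counters Aim2. Many family members are induced by interferons, and most of what is known of them comes from macrophages and dendritic cells.

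The 12 genes lie side by side within 611 kb of chromosome 1 (mouse build GRCm38, also called mm10), from 173420604 to 174031755. Their order from the lower coordinate is Aim2, BC094916, Pydc4, Pyhin1, Pydc3, AI607873, Ifi204, Mndal, Mnda, Ifi203, Ifi202b and Ifi205. By gene identifier, RefSeq now calls Mnda Ifi211, Pyhin1 Ifi209, BC094916 Ifi214, Pydc4 Ifi213, Pydc3 Ifi208 and AI607873 Ifi207. The tables' own symbols are kept here, and mouse Mnda and Pyhin1 should not be read as one-to-one counterparts of the human genes of those names.

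Promoter windows from 250 bases before to 50 bases after a transcript start were held for 11 of the 12 genes, 13 windows in all (RefSeq, GRCm38.p6), with Ifi204 not among them. Each was searched on both strands for an ISRE-like motif (GAAANNGAA or its reverse complement TTCNNTTTC), the general form of the element that interferon response factors bind. It occurred in 9 of the 13 windows, and in 8.56% of all 32851 windows of this length. Among the members' 7 windows it occurred in 3, those of Mnda and Ifi205 and 1 of the Ifi203 windows. The stretches below are the 39 bases around that match in genes of each sequence type. They are printed 5′ to 3′ on the gene's strand with the matching bases in capitals, and for Pyhin1 the capitals mark the aligned bases, which do not match.
BC094916: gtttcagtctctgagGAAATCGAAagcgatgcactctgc
Pyhin1: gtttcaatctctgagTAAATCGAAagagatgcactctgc
Pydc3: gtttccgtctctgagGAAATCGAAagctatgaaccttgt
AI607873: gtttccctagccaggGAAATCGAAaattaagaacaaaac
Mnda: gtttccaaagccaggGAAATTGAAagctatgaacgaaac
Ifi205: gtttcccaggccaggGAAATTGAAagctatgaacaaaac
Ifi203: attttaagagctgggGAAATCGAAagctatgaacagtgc
On chromosome 1 the BC094916 stretch runs from 173536013 to 173536051 (minus strand) and the Pyhin1 stretch from 173630765 to 173630803 (plus strand). The Pydc3 stretch runs from 173673592 to 173673630 (plus strand), and the Pydc4 stretch has the same letters. On the minus strand, the AI607873 stretch runs from 173741827 to 173741865 and the Mnda stretch from 173913060 to 173913098. The Ifi203 stretch runs from 173942504 to 173942542, also on the minus strand, and the Mndal stretch has the same letters. The Ifi205 stretch runs from 174031866 to 174031904 on the minus strand. The match began 79 bases before the start in BC094916, 58 in Pydc3, 37 in Mnda, 35 in Ifi203 and 134 in Ifi205.

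These windows were near copies of each other in pairs, so their matches are not independent. Over 300 bases, the windows of BC094916 and Pyhin1 were identical at 95.7%, those of Pydc4 and Pydc3 at 94.0%, those of Mndal and Ifi203 at 94.0% and those of AI607873 and Mnda at 87.0%. The Pyhin1 window differed from the BC094916 window within the motif by G172T, counted from 1 at the 5′ end of the BC094916 window with the BC094916 base first. The letters of the ISRE-like motif were not in the windows of Aim2, Pyhin1 and Ifi202b. A GAS-like motif (TTCNNNGAA, the general form of the interferon gamma-activated site) occurred in 1 of the 13 windows, that of Ifi202b, and in 8.30% of all windows. An AP-1-like motif (TGANTCA) occurred in 5 of the 13 windows, those of Pyhin1 and both windows each of Mndal and Ifi203, and in 7.81% of all windows. The Ifi203 windows overlap, and their matches are the same TGATTCA site counted in each. The same letters match in the Mndal window that is a near copy of an Ifi203 window, so the 5 are not independent. No match of one motif overlapped a match of another. These are letter matches and say nothing of what was bound in the cells.

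Values are FPKM, that is, fragments divided by transcript length in kb and by the library's mapped total, summed over the transcripts of a gene, so levels of different genes can be compared per length. From the steps between low FPKM values, depth was estimated at 18.4 M to 22.2 M fragments per library. Across the 10634 genes whose mean reached 1 FPKM in a tissue, replicates correlated at Pearson's r = 0.976 in CNS and 0.986 in dLN. CNS replicate 2 stood apart from replicate 1 in genes of microglia and macrophages, neutrophils and dendritic cells. Other lists differed less between the CNS libraries. Their sums were 1.25 and 1.77 for B-cell, 6.42 and 10.8 for CD8 T-cell and NK-cell, and 52.0 and 54.3 for neural markers. The summed FPKM of 16 microglia and macrophage markers was 27.3 and 241 in the CNS libraries and 4.38 and 3.93 in dLN, where 10 and 12 of the 16 were at 0. That of 9 neutrophil markers was 1.54 and 218 in CNS and 0.0817 and 0.0863 in dLN, with Elane at 0 throughout. That of 11 dendritic cell markers, which include MHC class II genes, was 42.7 and 587 in CNS and 63.7 and 58.2 in dLN. In CNS replicate 2 most of this sum was Cd74 (259), H2-Ab1 (126), H2-Aa (120) and H2-Eb1 (65.9). Itgax, of the same list, was at 5.50 and 5.55 in the CNS libraries. Each of the 11 CD4 T-cell markers was above 0 in all 4 libraries, so the labelled cell type was seen in each. Their direction was mixed. Cd4 itself was at 502 and 531 in CNS and 82.0 and 66.7 in dLN, but Cd44, of the sort gate, was at 112 and 112 in CNS and 176 and 157 in dLN. By the test of the next paragraph 6 of the 11 were higher in CNS, 3 were lower (Cd247, Cd5 and Cd44) and 2 did not pass (Cd2 and Lat). The Y-linked Ddx3y, Eif2s3y, Kdm5d and Uty were above 0 only in CNS libraries, and Xist was at 26.6 and 22.3 in dLN against at most 0.00260 in CNS, so tissue and the sex of the mice cannot be told apart. In bulk RNA, fewer cells of a type and less RNA per cell cannot be told apart either.

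Of the 7 members, 6 reached the minimum of 1 FPKM and were tested, and each of these reached it in dLN too. All 6 were higher in the CNS libraries than in dLN (limma on log2(FPKM + 1), adjusted p under 0.05 over all genes tested). Of all genes tested, 37.8% were called higher in CNS and 37.2% lower, 74.9% together. The 6 were each at least 2-fold higher on that scale, against 21% of all genes tested. For the 6, both CNS libraries lay above both dLN libraries, as they did for 45.7% of all genes tested. The median log2 ratio of the 6 was 2.29, beside 0.05 over all genes tested. Ifi202b was the exception, near the limit of detection in every library. With 2 libraries against 2, an exact permutation test of a single gene cannot go below 0.333, so the p-values rest on the spread that limma shares across genes.

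**Figure D1:**
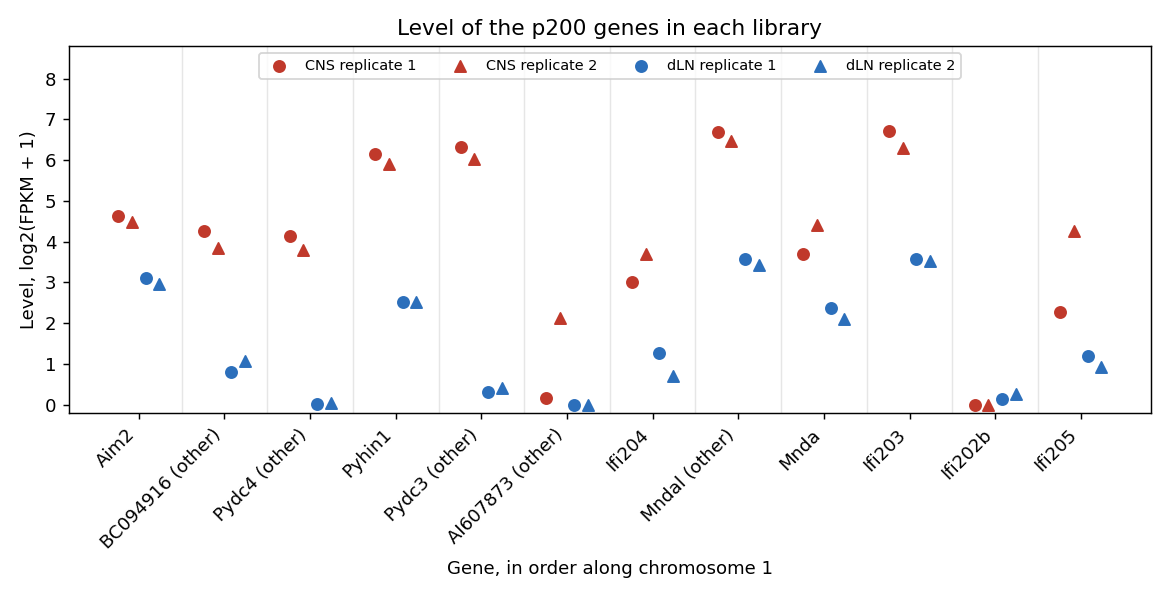
Level of the 12 p200 genes in each of the 4 libraries, as log2(FPKM + 1), in their order along chromosome 1; genes marked (other) are not among the 7 members, and 0 on the axis is an FPKM of 0. Every CNS point lies above the dLN points of the same gene except at Ifi202b, where the dLN libraries were at 0.101 and 0.197 FPKM and the CNS libraries at 0.

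Aim2, the sensor of the AIM2 inflammasome, was at 23.9 and 21.2 FPKM in CNS and 7.69 and 6.83 in dLN. The CNS libraries lay close together and well above the dLN libraries. Its level was 22.5 ± 1.89 in CNS and 7.26 ± 0.605 in dLN (SD, n = 2), a log2 ratio of 1.51 (SE 0.11, adjusted p = 0.000291 by limma), the smallest of the 6 tested members. Of all genes tested, 87.4% had a lower log2 ratio than Aim2.

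Ifi203 had the highest level of the 7 members in both tissues. It was at 103.7 and 78.0 FPKM in CNS and at 10.9 and 10.6 in dLN, so that CNS replicate 1 held more than replicate 2 and both were far above dLN. The means were 90.8 ± 18.2 and 10.7 ± 0.238 (SD, n = 2), with a log2 ratio of 2.95 (SE 0.15, adjusted p = 0.000131 by limma). The tables list 5 Ifi203 transcripts, and NM_008328 took the largest share of the gene's FPKM in every library. Its share was 71.3% and 69.7% in CNS and 61.1% and 67.8% in dLN. The longer NM_001302649 took 25.7% and 27.5% in CNS and 34.1% and 28.1% in dLN. For both of these transcripts the mean shares of the tissues differed by less than the dLN libraries did from each other. They overlap in the genome, and their split is the estimate of the authors' program.

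Pyhin1, a gene with a pyrin and a HIN domain, had the largest log2 ratio of the members. It was at 69.6 and 59.4 FPKM in CNS and at 4.71 and 4.75 in dLN, with the dLN libraries nearly equal. The log2 ratio was 3.51 (SE 0.11, adjusted p = 8.12e-05 by limma), and 98.9% of all genes tested had a lower one. Its 95% confidence interval, 3.23 to 3.79, lay above that of Aim2, 1.23 to 1.80.

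Ifi204 was lower than these members in both tissues. It was at 7.09 and 11.9 FPKM in CNS and at 1.40 and 0.644 in dLN, about 54.7 and 30.0 fragments in the latter. Here CNS replicate 2 held more than replicate 1, the reverse of Ifi203, Pyhin1 and Aim2. The log2 ratio was 2.36 (SE 0.30, adjusted p = 0.00160 by limma).

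Mnda was at 11.9 and 20.4 FPKM in CNS and at 4.20 and 3.32 in dLN, again with replicate 2 the higher of the CNS libraries. Its log2 ratio was 1.81 (SE 0.27, adjusted p = 0.00267 by limma). NM_001033450 made up between 80.1% and 100% of its FPKM, and the other listed transcript, of almost the same length, the rest.

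Ifi205, a close relative of Mnda best known from macrophages, had the widest spread of the members. It was at 3.87 and 18.3 FPKM in CNS, a 4.72-fold difference between replicates, and at 1.28 and 0.910 in dLN. CNS replicate 1 alone was 3.53-fold above the mean of dLN. The log2 ratio was 2.22 (SE 0.65, 95% confidence interval 0.51 to 3.92, adjusted p = 0.0295 by limma). It was 1.22 without CNS replicate 2 (adjusted p = 0.0138 by limma) and 3.21 without CNS replicate 1 (adjusted p = 0.00521 by limma), and leaving out either dLN library ended the call (adjusted p = 0.0885 and 0.119 by limma).

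Ifi202b, the member without a pyrin domain, is known to be weakly expressed in C57BL/6 mice. It was at 0 in both CNS libraries and at 0.101 and 0.197 FPKM in dLN, about 2.999 and 6.984 fragments. A count of 0 allows up to 3 fragments, or 0.0871 and 0.0864 FPKM in the CNS libraries, by counting error alone. It was under the minimum and not tested, no fold is given at this depth, and any difference between tissues rests on these few dLN fragments.

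**Figure D2:**
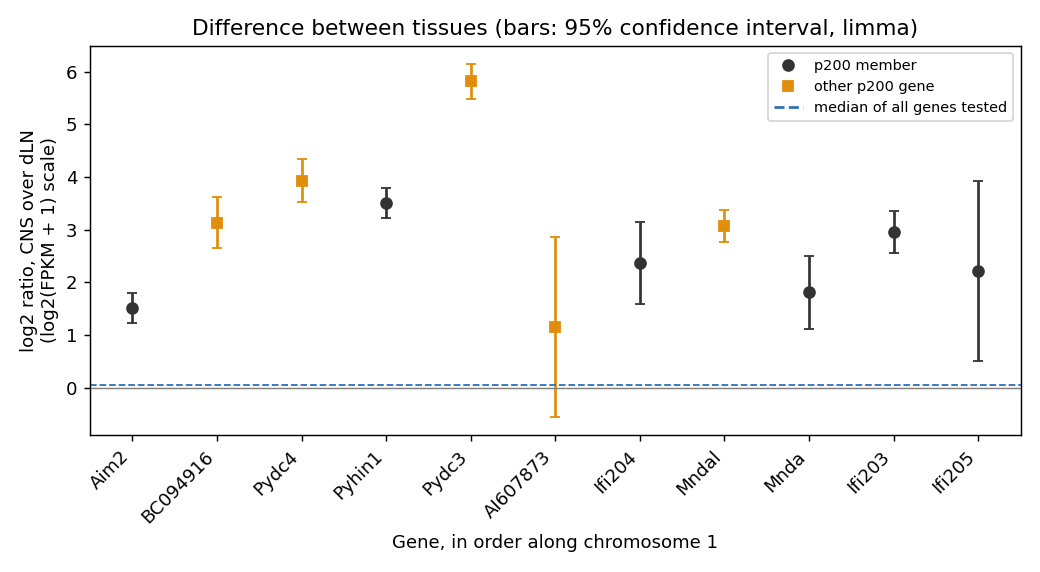
Log2 ratio of CNS over dLN on the log2(FPKM + 1) scale for the 11 tested p200 genes, with 95% confidence intervals from limma; circles are members, squares the other p200 genes, and the dashed line is the median of all genes tested, 0.05. The intervals of all genes but AI607873 lie above 0, and those of Ifi205 and AI607873 are the widest.

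By level in CNS the order of the members was Ifi203 (90.8 FPKM), Pyhin1 (64.5), Aim2 (22.5), Mnda (16.1), Ifi205 (11.1), Ifi204 (9.52) and Ifi202b (0). The libraries of Mnda, Ifi205 and Ifi204 overlapped, so their order is not set by these data, whereas Ifi203, Pyhin1 and Aim2 did not overlap with their neighbours. In dLN the order was Ifi203 (10.7 FPKM), Aim2 (7.26), Pyhin1 (4.73), Mnda (3.76), Ifi205 (1.09), Ifi204 (1.02) and Ifi202b (0.149). Only Ifi205 and Ifi204 overlapped there. Aim2 lay above Pyhin1 in both dLN libraries and below it in both CNS libraries.

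The 6 tested members split 3 and 3 by which CNS library was higher, and 54.3% of all genes tested were higher in CNS replicate 2. Ifi203, Pyhin1 and Aim2 were higher in CNS replicate 1, with replicate 2 at 0.752, 0.853 and 0.888 times replicate 1. Ifi204, Mnda and Ifi205 were higher in CNS replicate 2, at 1.69, 1.71 and 4.72 times replicate 1. A difference of at least 0.5 in favour of replicate 2 on the log2(FPKM + 1) scale, which these 3 genes showed, was found in 6.02% of all genes tested, and 1 of at least 1.5, as for Ifi205, in 1.54%. Of the markers of other cell types, 15 of 16 microglia and macrophage, 8 of 9 neutrophil and 10 of 11 dendritic cell markers were higher in CNS replicate 2. So were 6 of 7 CD8 T-cell and NK-cell, 6 of 10 neural and 4 of 7 B-cell markers. In the first list Cx3cr1 was the exception, at 5.54 in CNS replicate 1 and 4.03 in replicate 2. Mrc1 was at 0 in CNS replicate 1 and at 0.0180 in replicate 2. P2ry12 and Tmem119, which mark resident microglia, were at 0.437 and 0.199 in replicate 1 and 0.580 and 0.954 in replicate 2. The part of these cells in the levels of Ifi204, Mnda and Ifi205 was not tested. The marker sums of CNS replicate 1 were lower than those of replicate 2 but not all as low as in dLN. That of microglia and macrophages was 27.3, against 4.38 and 3.93 in dLN, and that of neutrophils 1.54, against 0.0817 and 0.0863. In CNS replicate 1, Ifi204 was 6.93-fold, Ifi205 3.53-fold and Mnda 3.16-fold above the mean of dLN. Ifi203, Pyhin1 and Aim2 were 9.66-fold, 14.7-fold and 3.29-fold above it.

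**Figure D3:**
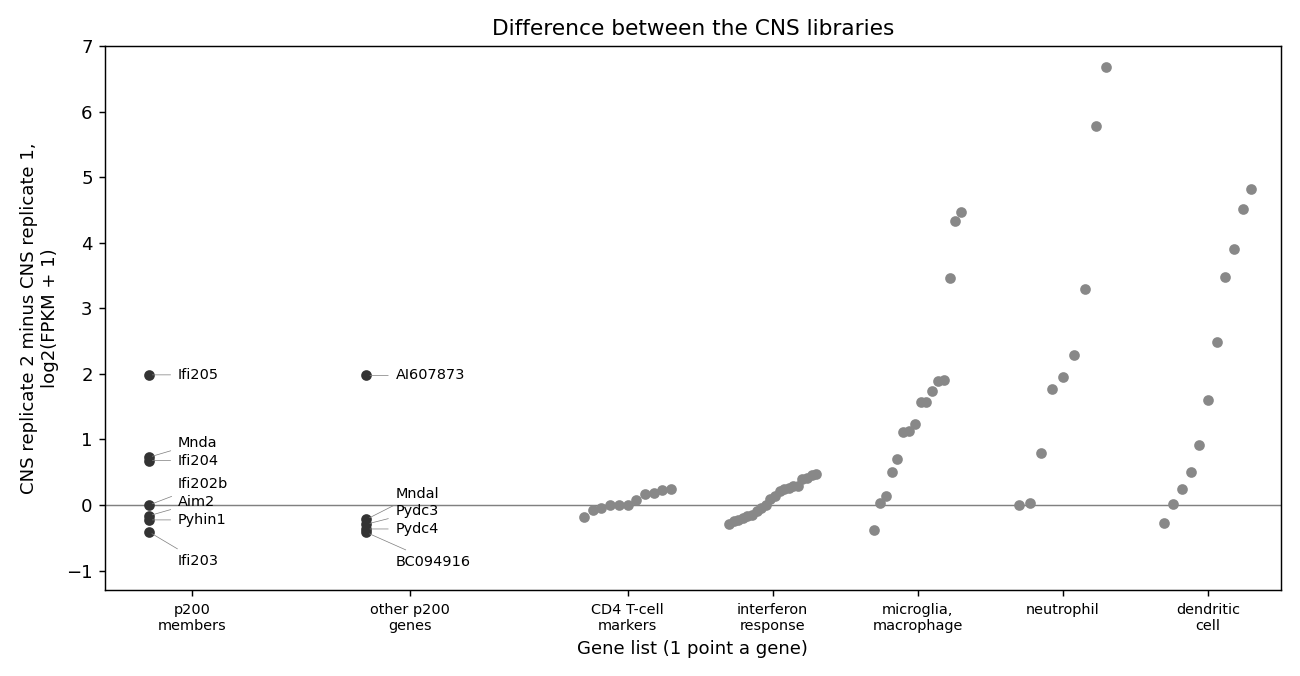
Difference between the CNS libraries (replicate 2 minus replicate 1, log2(FPKM + 1)) for each p200 gene, named, and for the genes of 5 lists, 1 point a gene, spread sideways only to separate the points. CD4 T-cell markers and interferon response genes stay within 0.5 of 0, markers of other immune cells reach far above it, and Ifi205, AI607873, Mnda and Ifi204 lie above 0 while the other detected p200 genes lie below.

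Members of this family are partly copies of each other, and reads of a shared stretch can be assigned to any of the genes that hold it. For all 12 genes, 14 transcript sequences of the same build were matched from GENCODE by RefSeq identifier, against 19 listed transcripts. They were cut into overlapping stretches of 50 bases. A matched sequence can differ in length from the listed one: BC094916 is listed at 1294 bases but gave 2839 stretches. Of the stretches of Mnda, 72.8% were also in another p200 gene, most often Ifi205 (44.7%). The share was 49.6% for Ifi205, nearly all of it with Mnda, 29.7% for Ifi204 and 29.3% for Pyhin1, the last all with BC094916. It was 2.96% for Ifi203 and 0 for Aim2 and Ifi202b. The split of FPKM among Mnda, Ifi205 and Ifi204 is therefore uncertain, as is that between Pyhin1 and BC094916. How the authors' program placed such reads is not given in the sources used here. The sum over all 12 genes, which depends less on that split, was 437 and 391 FPKM in CNS and 42.3 and 38.4 in dLN.

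**Figure D4:**
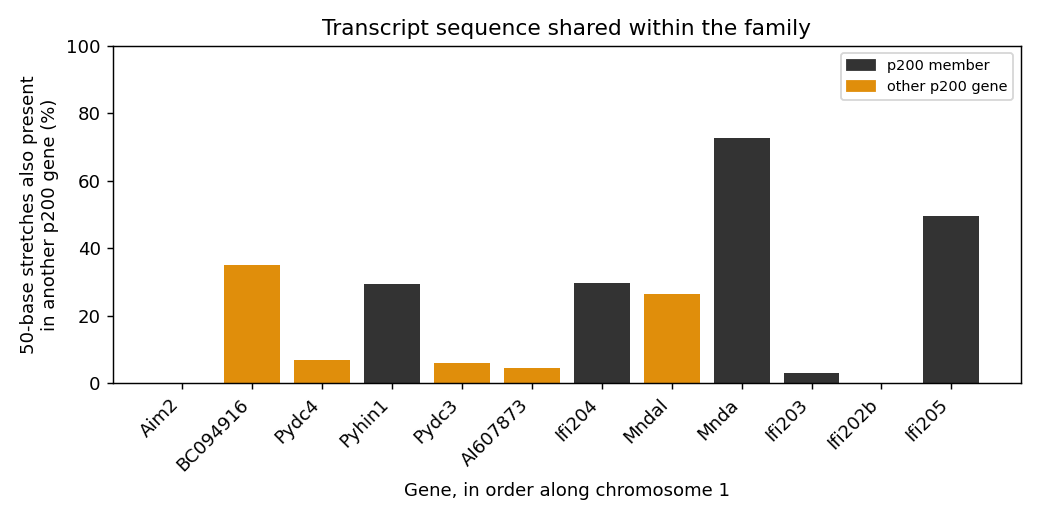
Share of each gene's 50-base transcript stretches that also occur in another p200 gene, in percent, by order along chromosome 1; black bars are members and orange bars the other p200 genes. Mnda (72.8%) and Ifi205 (49.6%) share most, while Aim2 and Ifi202b, at 0, share none.

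The other 5 p200 genes of the cluster all passed the minimum through CNS, and Mndal alone did so in dLN as well, so for the remaining ones a higher level in CNS follows in part from the filter. Mndal, a p200 gene next to Mnda, was at 102.5 and 88.1 FPKM in CNS and at 11.01 and 9.77 in dLN, with a log2 ratio of 3.08 (SE 0.12, adjusted p = 8.98e-05 by limma). Its levels in dLN were close to the 10.9 and 10.6 FPKM of Ifi203, and the promoter windows of Mndal and Ifi203 are near copies. Pydc3, named for its pyrin domain, was at 79.1 and 64.4 FPKM in CNS against 0.250 and 0.323 in dLN, about 12.97 and 20.04 fragments. Its log2 ratio of 5.81 (SE 0.13, adjusted p = 8.12e-05 by limma) was the largest of the family, and 99.9% of all genes tested had a lower one.

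Pydc4, with a promoter window 94.0% identical to that of Pydc3, was at 16.8 and 12.8 FPKM in CNS. In dLN it had only about 1 and 2 fragments (0.0221 and 0.0371 FPKM), so the ratio of means was 500 with a 95% counting interval of 171 to 2423 from the 3 dLN fragments (exact Poisson, counting error only). BC094916 was at 18.3 and 13.5 FPKM in CNS and 0.739 and 1.09 in dLN, with a log2 ratio of 3.13 (SE 0.19, adjusted p = 0.000179 by limma). AI607873 was at 0.115 and 3.39 FPKM in CNS and at 0 in both dLN libraries. Its mean was at least 35.6-fold higher in CNS than the level of 3 fragments in a dLN library, but the mean rests on CNS replicate 2, and the log2 ratio of 1.14 missed the threshold (adjusted p = 0.170 by limma), being 0.16 without CNS replicate 2 and 2.13 without CNS replicate 1. AI607873 thus joined Ifi204, Mnda and Ifi205 on the side of CNS replicate 2, while Mndal, Pydc3, Pydc4 and BC094916 were higher in replicate 1. Just outside the cluster, Darc, an atypical chemokine receptor gene, was at 7.64 and 22.2 FPKM in CNS and at 0 in dLN, and the olfactory receptor genes Olfr433 and Olfr432 were at 0 in all libraries.

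Genes of the inflammasome, the complex that Aim2 seeds, moved unevenly. Of 7 tested, 3 rose in CNS, 1 fell and 3 did not pass the test, with a median log2 ratio of 1.79. For scale, 37.8% of all genes tested were called higher in CNS and 37.2% lower. Pycard, the adaptor that Aim2 binds, was at 44.9 and 44.3 FPKM in CNS and 6.12 and 3.97 in dLN (log2 ratio 2.94, adjusted p = 0.000208 by limma). Casp1, its protease, was at 56.0 and 41.9 in CNS and 12.2 and 14.5 in dLN (log2 ratio 1.79), and Gsdmd, the pore-forming protein cut by caspase-1, was at 28.3 and 28.8 in CNS and 7.81 and 6.69 in dLN (log2 ratio 1.85). Aim2, Pycard, Casp1 and Gsdmd were thus each called higher in CNS. Casp4, of the caspase-1-independent pathway, went the other way, with 33.5 and 31.8 in CNS and 86.9 and 102.8 in dLN (log2 ratio -1.51). The cytokine gene Il1b was at 1.26 and 86.4 FPKM in CNS and at 0 in dLN, so it followed the markers of other cells in CNS replicate 2, and it did not pass the test (adjusted p = 0.0973 by limma). Casp8 (log2 ratio 0.49) and the sensor gene Nlrp3 (0.65) did not pass it either.

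Of 14 tested genes of cytosolic DNA sensing, 8 rose in CNS, 4 fell and 2 did not pass the test, with a median log2 ratio of 0.88. Again 37.8% of all genes tested were called higher and 37.2% lower. Zbp1, a sensor of Z-form nucleic acid, had a log2 ratio of 4.03, with 173 and 179 FPKM in CNS and 11.2 and 8.63 in dLN. Tmem173, which encodes Sting, had one of 2.12, with 60.8 and 64.2 in CNS and 16.2 and 11.3 in dLN. The nuclease gene Trex1, whose protein limits the DNA that sensors meet, and Samhd1, whose protein limits nucleotides, had log2 ratios of 2.33 and 1.13. Those that fell were Ddx41 (log2 ratio -0.82), Irf3 (-0.66), Tbk1 (-0.51) and Mb21d1, the gene of the sensor cGAS (-0.44). Leaving out either dLN library ended the call of Mb21d1 (adjusted p = 0.0766 and 0.0710 by limma). Rnaseh2b (-0.11) and Dnase2a (0.04) did not pass the test.

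Interferons themselves were mostly at 0. Of 15 ligand genes only Ifng passed the minimum, at 469 and 693 FPKM in CNS and 324 and 138 in dLN (log2 ratio 1.43, SE 0.44, adjusted p = 0.0343 by limma). The call of Ifng was lost when either CNS library or dLN replicate 2 was left out (adjusted p = 0.116, 0.218 and 0.0686 by limma), with log2 ratios of 1.71, 1.15 and 0.81. Ifnb1, the gene of interferon beta, was at 0.400 FPKM in CNS replicate 2 and at 0 in the other libraries.

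Of 12 receptor and signalling genes, 9 rose in CNS, 2 fell and 1 did not pass the test, with a median log2 ratio of 1.23. Among all genes tested, 37.8% were called higher and 37.2% lower. Ifngr1, the ligand-binding chain of the interferon gamma receptor, was at 497 and 471 FPKM in CNS and 14.7 and 11.02 in dLN (log2 ratio 5.14), while its partner chain Ifngr2 did not pass the test (-0.41). Jak1, a kinase shared by the interferon receptors, had a log2 ratio of 1.66 and Irf1 one of 1.45. Jak2, the kinase on the Ifngr2 chain, was lower in CNS, with 29.4 and 31.6 against 191 and 214 in dLN (log2 ratio -2.69), as was the feedback inhibitor Socs1 (-0.39). The call of Socs1 was lost without either dLN library (adjusted p = 0.109 and 0.0924 by limma), with libraries scaled to the same upper quartile (0.0700) and with the highest transcript in place of the gene's total (0.108).

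The interferon response genes set the members in context. Of 19 tested, 18 rose in CNS and 1, Ifih1, fell (log2 ratio -2.11). The shares of all genes tested were 37.8% higher and 37.2% lower. Several that rose, such as Ifit1 (37.3 FPKM in CNS, 0.305 in dLN) and Rtp4 (40.5 and 0.104), passed the minimum only through CNS. For those a higher level in CNS follows in part from the filter. The median log2 ratio of the list was 3.25, beside 2.29 for the 6 members. The members all reached the minimum in dLN too, so the medians are not of like sets. Isg15, an interferon-induced ubiquitin-like protein, was at 108 and 151 FPKM in CNS and 9.69 and 8.95 in dLN (log2 ratio 3.64). Irf7, which amplifies interferon production, was at 56.1 and 66.4 in CNS and 1.02 and 1.40 in dLN (log2 ratio 4.82). Bst2, a membrane tether of viruses, had one of 2.17, below those of Pyhin1 and Ifi203. The lists were written with earlier results of these data known, so these counts are a description.

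Of 9 genes whose proteins bind p200 proteins or act with those that do, 4 rose in CNS, 2 fell and 3 did not pass the test. Such counts stand beside 37.8% called higher and 37.2% lower among all genes tested. Id2, an inhibitor of basic helix-loop-helix factors and a partner of Ifi204, was at 378 and 350 FPKM in CNS and 91.0 and 51.6 in dLN (log2 ratio 2.39). Rb1, which encodes the retinoblastoma protein, had a log2 ratio of 1.74, Id3 one of 1.16 and E2f1 one of 0.94. The call of Id3 was lost without either dLN library (adjusted p = 0.0929 and 0.0596 by limma) and without a filter on low values (0.0654). E2f4 (-1.21) and Trp53bp1 (-1.23) were lower. Id1 (1.13), Ubtf (-0.21) and Trp53 (-0.08) did not pass the test.

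**Figure D5:**
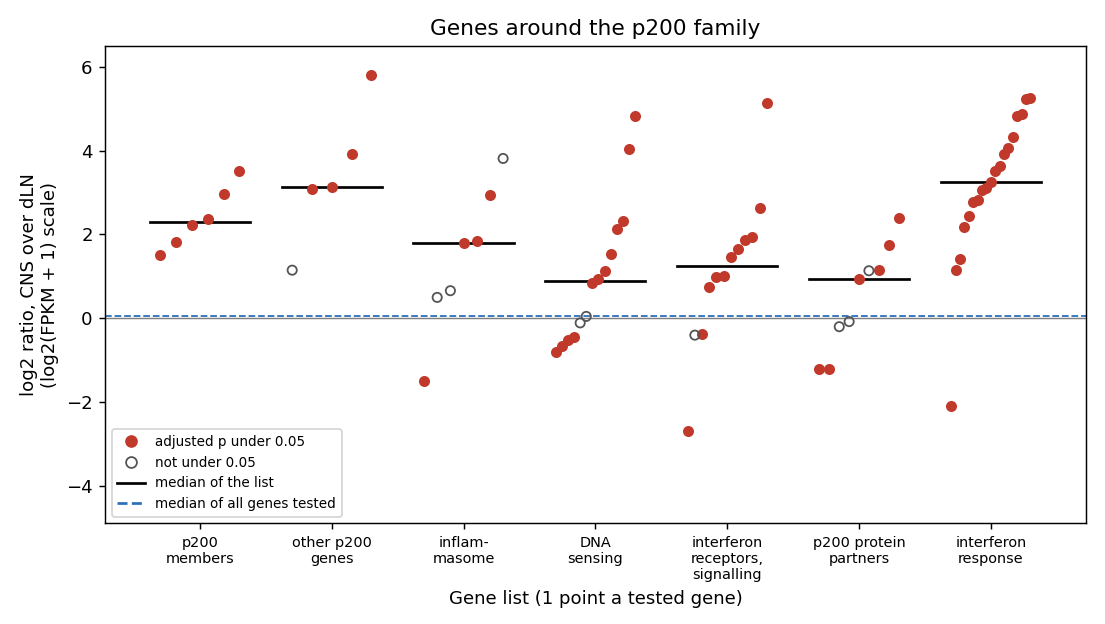
Log2 ratios of CNS over dLN for the tested genes of 7 lists, 1 point a gene, with filled points for an adjusted p under 0.05, short black lines for the median of a list and a dashed line for the median of all genes tested. The tested members all lie above 1.5, and the interferon response genes have the highest median, 3.25. Several interferon response genes and most of the other p200 genes passed the minimum only through CNS.

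The genes with the pattern most like each member were found by the root mean square difference of centred log2(FPKM + 1) over the 4 libraries. For Aim2 these were Zcchc11 (difference 0.0122), Tfdp2 and Gabarapl2, and for Ifi203 they were Dpp4 (0.0195), 4930486L24Rik and Itga1. Pyhin1 was nearest to BC147527 (0.0360), Spata6 and Pdcd4. Mnda was nearest to H2-K2 (0.0155), Emc9 and Slc8b1. Ifi204 was nearest to Themis2 (0.0739), Lst1 and Igsf8. The nearest gene to Ifi205 was farther off than those, with Pla2g7 (0.112) first, then Nefl and Cxcl9. Dpp4, a surface peptidase of T cells, was at 19.5 and 14.998 FPKM in CNS and 1.40 and 1.28 in dLN, a higher level in CNS replicate 1 as for Ifi203. Cxcl9, a chemokine gene induced by interferon gamma in myeloid cells, was at 1.46 and 11.7 in CNS and 0.139 and 0.123 in dLN, a higher level in CNS replicate 2 as for Ifi205. With 4 libraries, many genes share such a pattern.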

How the data were processed

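RNA of sorted CD4 cells was measured in 2 CNS and 2 dLN libraries, made with TruSeq RNA V2 kits and sequenced on an Illumina HiSeq2500. The deposited values are FPKM for 33819 RefSeq transcripts (build mm10), made by the authors from trimmed, mapped reads, with a separate table for each tissue. The program that computed FPKM is not given in the sources used here. The CNS table holds both library names in a single header cell, and the order of the names was taken as the order of its value columns. No other columns of per-sample values were present.

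FPKM was summed by gene symbol (23990 symbols; 565 transcripts without a symbol, 0.142% to 0.446% of FPKM, were left out). The test was limma 3.58.1 (lmFit, eBayes with trend) under R 4.3.3, with no term but tissue, applied to log2(FPKM + 1) of the 10634 genes whose mean reached 1 FPKM in a tissue. P-values were adjusted by Benjamini-Hochberg (threshold 0.05). Log2 ratios (CNS over dLN) keep this scale, so changes of low genes are understated. The script was tested on simulated data. Depth, and from it fragments, came from the spacing of low FPKM values. Low values fell within 0.2 of a whole number of fragments in 94.2% to 96.1% of cases, where chance gives 40%. Intervals and floors (3 fragments) cover counting error only. Promoter windows came from RefSeq (GRCm38.p6), and genes were matched by gene identifier. Transcript sequences for the shared stretches came from GENCODE and were matched by RefSeq transcript identifier. Python 3.11.15, numpy 2.4.6, pandas 2.3.3, scipy 1.17.1, biopython 1.88 and matplotlib 3.10.9 were used for the rest.

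The members and gene lists were chosen with earlier results of these data known. Named genes are the members, the other p200 genes of the cluster and their neighbours, the 3 tested genes most like each tested member, and of each pathway list at most 6 genes by level plus those that a count of 5 or fewer refers to. Some genes that this rule names are not reported here. Markers of other cells were listed to check the sort. The replicate numbers were not taken as pairs: the correlation of the replicate differences was 0.0933, and the labels tie no number to a shared animal or day. Alternatives covered the pseudocount, the filter, 3 scalings, using each gene's highest transcript, a replicate block, eBayes without trend and leaving out each library.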

Additional observations from a re-analysis of the deposited data

How the results depend on the processing

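The count of genes called, 7968, ranged from 6596 to 8477 over 14 alternatives. The 6 members were called under each of them, except that without a filter on low values and without either dLN library 5 were called, each time without Ifi205 (limma adjusted p = 0.0896, 0.0885 and 0.119). Over all alternatives, 81 of 84 member values had the same direction and call. The log2 ratio stayed between 3.33 and 3.76 for Pyhin1, 2.75 and 3.16 for Ifi203, 2.03 and 3.26 for Ifi204, 1.44 and 2.17 for Mnda and 1.33 and 1.63 for Aim2. Without a filter Ifi202b entered the test with a log2 ratio of -0.20 (limma adjusted p = 0.0424), on at most 6.984 fragments in a library. With a replicate block, 7828 genes and the same 6 members were called, and of the 70 genes recomputed under each alternative (p200, neighbour, pathway and most like genes) 2 changed their call, Casp8 and Id1, which passed the threshold (limma adjusted p = 0.0302 and 0.0227). The scalings moved the median of all genes tested from 0.05 to between -0.13 and 0.16 on the log2 scale, against which values near 0 should be read. Of 970 values of these 70 genes, 909 had the same direction and call, 26 fell short of the threshold, 25 passed it and 10 changed direction, each of a gene that did not pass the test. With libraries scaled to the same upper quartile, Trp53 was at 0.050 and Rnaseh2b at 0.011. Dnase2a was at -0.11 with the same sum and at -0.0087 with the median ratio. With 1 library left out, values ranged from -0.21 to 0.047 for Trp53, from -0.23 to 0.0024 for Rnaseh2b, from -0.30 to 0.38 for Dnase2a, from -0.83 to 0.012 for Ifngr2 and from -0.17 to 1.48 for Nlrp3. The causes were not tested.

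With 2 libraries per tissue, the replicate spread rests on 1 difference each. Where 1 library is left out, the lone one is assumed to vary like the others. Tissue, deposited table and sex-linked transcripts follow the same split. Depth limits Ifi202b, AI607873 and Pydc4 in dLN. TruSeq RNA V2 kits do not mark strand, and paralogs share reads. Values of Mnda, Ifi205, Ifi204 and Pyhin1 are thus the least certain of the members that were tested.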
